A study of Mus musculus with 4 samples.

Results

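The 10 genes described here are junction, keratin and mesenchymal genes read in the retinal pigment epithelium (RPE): the cadherin genes Cdh1 and Cdh3, the claudin gene Cldn19, the keratin genes Krt8, Krt18 and Krt23, the uroplakin gene Upk3b, and the mesenchymal genes Vim, Acta2 and Snai2. They are 10 of the 32285 genes in the count tables and were taken by symbol. They were chosen by their knockout and wild-type levels in the RPE of these same libraries, with results already known. The knockout over wild-type values in RPE-like cells are therefore a description with no test. The data are droplet single-cell RNA counts of the RPE, a pigmented sheet under the photoreceptors, and the vessel-rich choroid beneath it, freed of neural retina and digested with collagenase, dispase and trypsin. The 4 groups were Vldlr-/- mice at 1 month, wild-type mice at 1 month, Vldlr-/- mice at 2 months and wild-type mice at 2 months, with 1 library each. Vldlr-/- mice lack the very low density lipoprotein receptor in every tissue, so no value separates an effect within the RPE from one outside it. The sources used here do not give the strain, the sex or how many animals were pooled in a library. The title of the series concerns RPE mitochondrial energetics and subretinal fibrosis, and the comparison asks how genes of epithelial and mesenchymal cell state stood in RPE of the knockout.

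The RPE is a single layer of epithelial cells held together by cadherins and sealed by claudins, and this seal forms the outer blood-retinal barrier. Its cells carry the paired keratins of simple epithelia, and unlike many epithelia they rely on P-cadherin (Cdh3) more than on E-cadherin (Cdh1) in the mouse. In fibrosis, epithelial cells can lose junctions and keratins and gain vimentin (Vim), smooth muscle actin (Acta2) and repressors such as Slug (Snai2). Of these genes, Vim is carried by fibroblasts and mural cells of the choroid, Acta2 mainly by mural cells and Snai2 by fibroblasts.

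The libraries held 12022513 UMIs (unique RNA molecules; Vldlr-/-, 1 month), 11194301 (wild type, 1 month), 16292472 (Vldlr-/-, 2 months) and 23070271 (wild type, 2 months). The limits of 300 genes or more and 30% mitochondrial UMIs or less kept 6555 of 7943 barcodes. The RPE-like cells, named from marker genes with the 10 genes left out of the clustering, were 165 (Vldlr-/-) and 236 (wild type) at 1 month and 608 and 1456 at 2 months. Their UMIs came to 375311 (Vldlr-/-) and 601774 (wild type) at 1 month, and to 8077594 and 15728416 at 2 months, so that 1-month values rest on far fewer counts. Of the 10 RPE markers 9 or 10 were counted in each library. Best1, which codes for an RPE chloride channel, was at 0 in both 1-month libraries and at 2 and 6 UMIs in Vldlr-/- and wild type at 2 months. Vldlr, the targeted gene (GRCm38 chromosome 19, 27216484 to 27254231, plus strand), had 4 UMIs in Vldlr-/- against 78 in wild-type RPE-like cells at 1 month, and 218 against 2788 at 2 months. Its log2 ratio (Vldlr-/- over wild type) was -3.44 at 1 month and -2.71 at 2 months. The difference was smaller in rod-like (photoreceptor) cells of 1 month, with 393 UMIs (213 CPM) in Vldlr-/- against 150 (323 CPM) in wild type. Their log2 ratio was -0.61 (-0.88 to -0.32). The sources used here do not say which exons were deleted. Barcodes at or above 1000 CPM (counts scaled to 1000000) of Malat1, a nuclear RNA, were 25.5% (Vldlr-/-) and 21.2% (wild type) of RPE-like cells at 1 month, and 28.0% and 11.3% at 2 months. A single barcode sequence was shared, between the Vldlr-/- libraries of the 2 ages. One RPE-like cluster, led by Cox8b, Pmel and Dct, had Ttr among its 10 leading genes when 100 CPM were added before ranking, but no RPE marker and the melanocyte marker Mlana when 10 CPM were added. Without that cluster none of the 7 genes measured below changed direction at 2 months, and at 1 month Vim stood at 0.57 in place of -0.01. Another, led by Otx2os1 and Trpm3 and present at 2 months (107 Vldlr-/- and 111 wild-type cells), had 8 of 10 RPE markers at least 2-fold up but none among its 10 leading genes. It held 45.1% of the RPE-like UMIs in Vldlr-/- and 19.4% in wild type, and without it the members 2-fold apart still numbered 3 at 2 months, while Acta2 stood at -0.02 in place of 0.09.

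Of the 10 genes, 7 had at least 30 UMIs in RPE-like cells at each age and are called measured: Cdh3, Krt8, Krt18, Krt23, Upk3b, Vim and Acta2. The other 3, Cdh1, Cldn19 and Snai2, had between 0 and 4 UMIs in every library. At least 2-fold apart between the genotypes were 3 of the 7 at 1 month, which were Cdh3 and Upk3b (higher in Vldlr-/-) and Krt23 (lower), against 6.28% of the 3647 genes with as many counts (3.48% higher and 2.80% lower). At 2 months 3 of 7 were 2-fold apart again, Upk3b and Vim (higher) and Krt23 (lower), against 4.35% of 11856 genes (3.28% higher and 1.07% lower). Those 389 higher and 127 lower genes were 162 and 201 without the cluster led by Otx2os1 and Trpm3. Since the genes were picked with this contrast known, those shares are given as background only. The 2-fold limit stands in for a test, because 1 library a group gives no spread between replicates. All coordinates are those of GRCm38 in GENCODE M21, matched by gene identifier, while the submitters name another build. Levels below are CPM of the RPE-like UMIs, with exact Poisson 95% intervals for sums and exact binomial ones for ratios, which cover counting error only.

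**Figure D1:**
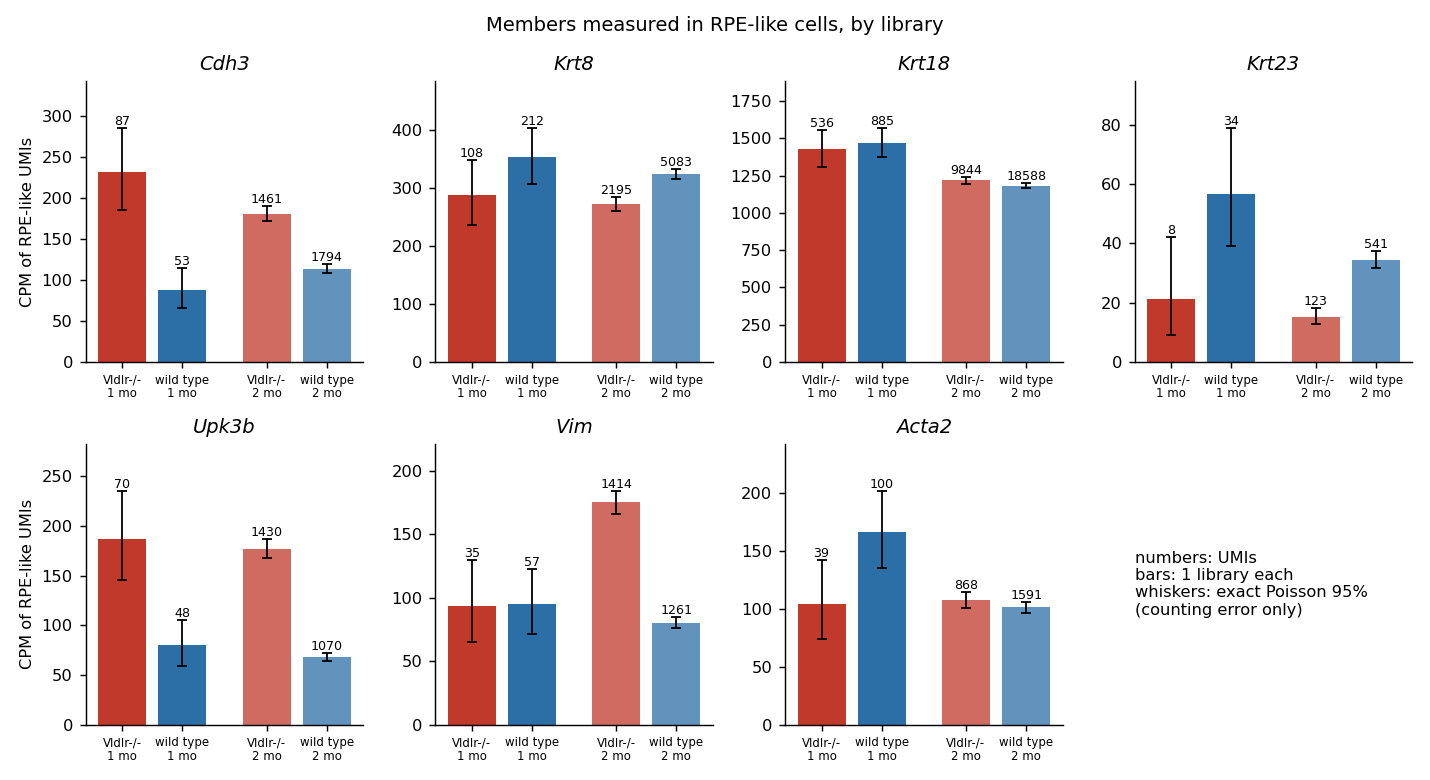
Level of the 7 measured genes in RPE-like cells (CPM, vertical axes from 0, a different scale in each panel) with Vldlr-/- in red and wild type in blue at 1 month and, paler, at 2 months. Each bar is 1 library, the number above it is its UMI count and the whisker is the exact Poisson 95% interval; Upk3b stood at 187 and 177 CPM in Vldlr-/- against 79.8 and 68.0 CPM in wild type, and Krt23 at 21.3 and 15.2 CPM against 56.5 and 34.4 CPM.

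Cdh3, which codes for P-cadherin, the adhesion molecule of RPE adherens junctions (ENSMUSG00000061048, GRCm38 chromosome 8, 106510891 to 106557297, plus strand), was higher in Vldlr-/- RPE-like cells at both ages. It had 87 UMIs (232 CPM) in Vldlr-/- against 53 (88.1 CPM) in wild type at 1 month, and 1461 UMIs (181 CPM) against 1794 (114 CPM) at 2 months. The 2 wild-type libraries were both below the 2 knockout ones. The log2 ratio was 1.39 (0.89 to 1.92) at 1 month and 0.67 (0.56 to 0.77) at 2 months, where it was under the 2-fold limit. Of all Cdh3 UMIs in the clustered cells 97.3% lay in RPE-like cells, and fibroblast-like cells stood at 5.82 (Vldlr-/-) and 3.56 CPM (wild type) at 2 months.

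Cdh1, the E-cadherin gene, close to Cdh3 on chromosome 8 (106603351 to 106670246, plus strand), was at 0 UMIs in 3 of the 4 libraries and at 4 UMIs in wild type at 2 months. A count of 0 allows a level of up to 7.99 CPM in Vldlr-/- and 4.99 CPM in wild type at 1 month, and 0.371 CPM in Vldlr-/- at 2 months (3 counts of the total). Surface epithelial-like cells, 4 and 6 cells of the 2-month libraries with the corneal and conjunctival keratins Krt5, Krt13 and Krt15, had 10 Cdh1 UMIs in Vldlr-/- and 27 in wild type (121 and 203 CPM). Melanocyte-like cells had 14 UMIs in 32 Vldlr-/- cells and 1 UMI in 18 wild-type cells at 2 months. RPE-like cells thus held 3.60% of the 111 Cdh1 UMIs of all clustered cells, and surface epithelial-like cells held 33.3%.

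Cldn19, a claudin gene whose protein is a main tight junction component of human RPE (chromosome 4, 119255414 to 119262438, plus strand), was at 0 UMIs in the RPE-like cells of all 4 libraries. At the depth of the 2-month libraries this allows up to 0.371 CPM in Vldlr-/- and 0.191 CPM in wild type. Its counts lay elsewhere, with 93.6% of 157 UMIs in an unnamed cluster led by Gpx3 and Penk, at 29 UMIs in 18 Vldlr-/- cells and 118 in 79 wild-type cells. An antisense gene, Gm12927, overlaps Cldn19, and the sources used here do not say whether counting used strand. Of the 13 claudin genes on the tight junction list, Cldn1 had the most RPE-like UMIs. It had 105 UMIs in each genotype at 1 month (280 CPM in Vldlr-/- against 174 CPM in wild type) and 2394 against 5754 at 2 months (296 against 366 CPM). Its log2 ratio was 0.68 (0.28 to 1.09) at 1 month and -0.30 (-0.37 to -0.23) at 2 months, on opposite sides of 0.

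Krt18 and Krt8, whose proteins pair into the keratin filaments of simple epithelia, differed little between the genotypes. Krt18 (chromosome 15, 102028180 to 102032027, plus strand) had 536 UMIs (1428 CPM) in Vldlr-/- against 885 (1471 CPM) in wild type at 1 month, and 9844 (1219 CPM) against 18588 (1182 CPM) at 2 months. Its log2 ratio was -0.04 (-0.20 to 0.11) at 1 month and 0.04 (0.01 to 0.08) at 2 months. Krt8 (chromosome 15, 101996698 to 102004482, minus strand, the next coding gene) had 108 UMIs (288 CPM) in Vldlr-/- against 212 (352 CPM) in wild type at 1 month, and 2195 (272 CPM) against 5083 (323 CPM) at 2 months. Its log2 ratio was -0.29 (-0.64 to 0.05) at 1 month and -0.25 (-0.32 to -0.18) at 2 months. Per 100 Krt18 UMIs there were 20.1 Krt8 UMIs in Vldlr-/- against 24.0 in wild type at 1 month, and 22.3 against 27.3 at 2 months. At 2 months 433 of 608 Vldlr-/- cells and 1101 of 1456 wild-type cells had UMIs of both genes. A lincRNA gene, Gm36026, overlaps Krt8 on the other strand, and a pseudogene, Krt8-ps, is annotated, so that its counts may include reads of either.

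Outside the RPE both genes were lower, apart from Krt8 in wild-type surface epithelial-like cells. Melanocyte-like cells of 2 months had 326 (Vldlr-/-) and 542 CPM (wild type) of Krt18. Fibroblast-like cells stood at 3.70 CPM of Krt18 in Vldlr-/- and 2.12 CPM in wild type for the 1-month libraries. At 2 months they stood at 53.8 and 22.8 CPM, with 27.9 and 31.25 Krt8 UMIs per 100 of Krt18 (31 and 10 Krt8 UMIs). Rod-like cells, photoreceptors carried along with the tissue, differed from this. They had 209 Krt18 UMIs with 1 Krt8 UMI in Vldlr-/- and 85 with 2 in wild type at 1 month, or 0.478 and 2.35 Krt8 UMIs per 100 of Krt18. The Rpe65 of rod-like cells was at 10.8 and 4.31 CPM, against 4047 and 4601 CPM in RPE-like cells. Surface epithelial-like cells had 2 Krt8 UMIs in Vldlr-/- and 76 in wild type, with 0 and 2 of Krt18.

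Krt23, an acidic type I keratin gene (ENSMUSG00000006777, chromosome 11, 99477974 to 99493137, minus strand), was lower in Vldlr-/- at both ages. It had 8 UMIs (21.3 CPM) in Vldlr-/- against 34 (56.5 CPM) in wild type at 1 month, and 123 (15.2 CPM) against 541 (34.4 CPM) at 2 months. Both knockout libraries were below both wild-type ones. The log2 ratio was -1.34 (-2.73 to -0.27) at 1 month and -1.17 (-1.47 to -0.89) at 2 months. It was the 26th lowest of 3647 ratios at 1 month and the 95th lowest of 11856 at 2 months, and it was 1 of 8 genes (0.219% of 3646) at least 2-fold lower at both ages. The ratio lay under 2-fold at 2 months with cells thinned to equal depth (-0.75) and in Malat1-rich barcodes (-0.66), and at 1 month among barcodes with at least 1000 genes (-0.55, interval -2.27 to 0.83, from 6 and 15 UMIs). In the surface epithelial-like cells the counts ran the other way, with 92 UMIs in 4 Vldlr-/- cells and 16 in 6 wild-type cells. Other keratins also differed between these few cells, with Krt14 at 113 and 11 UMIs and Krt5 at 136 and 773. The part of cell make-up was not tested. Krt5 and Krt14, the basal keratins of those cells, were at 0 in 3 libraries of RPE-like cells and at 1 and 0 UMIs in wild type at 2 months. Of 53 keratin genes listed, 32 were never counted in RPE-like cells, and of the 6 measured at 2 months Krt23 alone was 2-fold apart, with a list median of -0.17 beside 0.07 over all genes. Of 4 measured at 1 month, Krt10 (24 and 18 UMIs) was 2-fold higher and Krt23 2-fold lower in Vldlr-/-.

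Upk3b codes for uroplakin 3B, a membrane protein known from the plaques of bladder epithelium and from mesothelium (ENSMUSG00000042985, chromosome 5, 136038496 to 136046487, plus strand), and it was higher in Vldlr-/- at both ages. It had 70 UMIs (187 CPM) in Vldlr-/- against 48 (79.8 CPM) in wild type at 1 month, and 1430 (177 CPM) against 1070 (68.0 CPM) at 2 months. Both knockout libraries were above both wild-type ones. The log2 ratio was 1.22 (0.68 to 1.79) at 1 month and 1.38 (1.26 to 1.5) at 2 months. It was the 69th highest ratio of 3647 at 1 month and the 170th highest of 11856 at 2 months. It was 1 of 7 genes (0.192%) at least 2-fold higher at both ages. RPE-like cells held 98.5% of its UMIs. Of 5 other mesothelial markers 2 (Vldlr-/-) and 2 (wild type) were counted in RPE-like cells at 1 month and 3 and 2 at 2 months, with Msln and Wt1 at 0 in all 4 libraries. They summed to 16.0 and 19.9 CPM at 1 month and to 11.8 and 9.09 CPM at 2 months (95 and 143 UMIs), led by Nkain4 in 3 libraries and by Upk1b in wild type at 1 month, and their part in the Upk3b values was not tested. The related gene Upk3bl had 61 UMIs (163 CPM) in Vldlr-/- against 89 (148 CPM) in wild type at 1 month and 688 (85.2 CPM) against 1170 (74.4 CPM) at 2 months, with log2 ratios of 0.14 and 0.20. Upk2 and Upk3a were at 0.

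The bases upstream of Krt23 and Upk3b are shown because these genes passed the 2-fold limit, each in its own direction, at 1 and at 2 months. They come from the set of RefSeq promoter windows used here (GRCm38.p6), which held 7 of the 10 genes. Cdh1, Cdh3 and Snai2 were not in that set. Each run ends where the annotated GENCODE gene begins and reads 5′ to 3′ on the strand of the gene, chr11:99493138-99493370 on the minus strand for Krt23 and chr5:136038246-136038495 on the plus strand for Upk3b. Capitals mark matches, on either strand, to TAATCC (the core bound by OTX homeodomain proteins), to CATGTG or CACGTG (E-boxes of the kind bound by MITF, a pigment cell factor) and to CAGGTG (the E-box bound by Snai and Zeb repressors).
Krt23: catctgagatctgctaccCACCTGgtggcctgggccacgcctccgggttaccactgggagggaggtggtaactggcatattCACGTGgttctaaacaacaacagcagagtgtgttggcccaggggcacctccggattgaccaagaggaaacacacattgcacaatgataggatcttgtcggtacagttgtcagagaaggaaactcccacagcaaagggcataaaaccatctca
Upk3b: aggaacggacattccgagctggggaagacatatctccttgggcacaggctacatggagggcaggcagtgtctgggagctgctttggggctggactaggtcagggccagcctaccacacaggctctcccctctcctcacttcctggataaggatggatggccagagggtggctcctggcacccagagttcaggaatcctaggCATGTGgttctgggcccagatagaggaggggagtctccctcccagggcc
Krt23 held CAGGTG on the opposite strand (printed as CACCTG) and CACGTG once each, and Upk3b held CATGTG once. In the 250 bases before the start, CAGGTG occurred in 17.2%, CATGTG in 12.3%, CACGTG in 6.02% and TAATCC in 6.25% of the 32851 RefSeq windows. Krt8 and Krt18 each held 1 CAGGTG, and Vim, Acta2 and Cldn19 held no match.

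**Figure D2:**
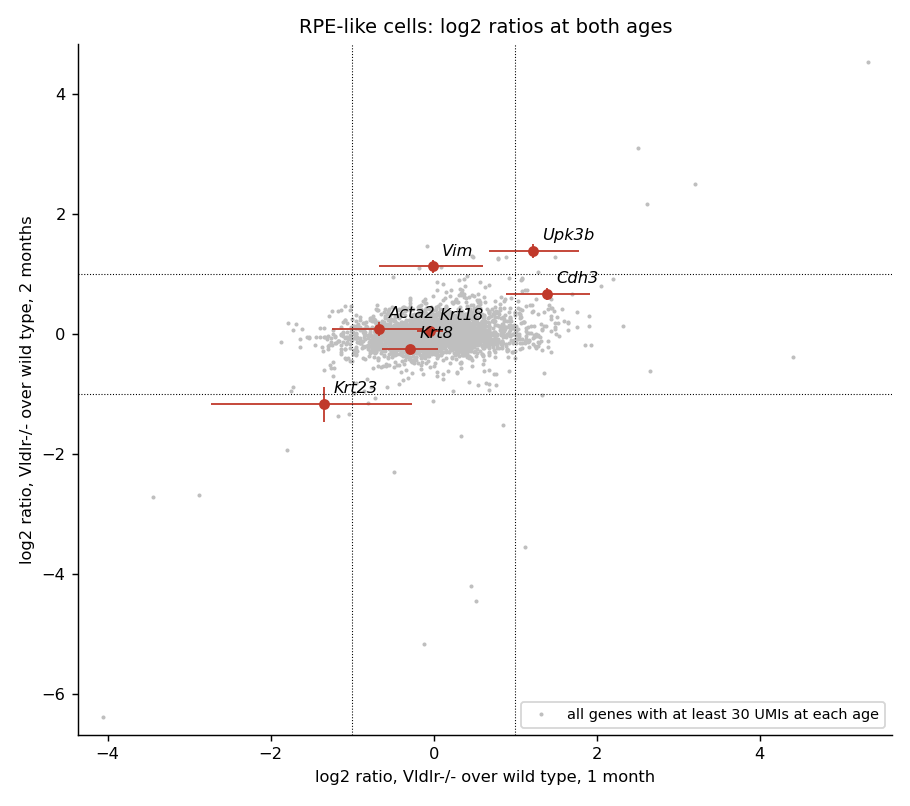
Log2 ratio of Vldlr-/- over wild type in RPE-like cells at 1 month (horizontal axis) and 2 months (vertical axis) for 3646 genes with at least 30 UMIs at each age (grey points), with the 7 measured genes in red, their 95% counting intervals as lines, and dotted lines at 2-fold. Upk3b lies past 2-fold higher and Krt23 past 2-fold lower at both ages, Cdh3 passes it at 1 month and lies under it at 2 months, and Vim the other way round.

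Vim codes for vimentin, the intermediate filament of mesenchymal cells (ENSMUSG00000026728, chromosome 2, 13573927 to 13582826, plus strand). In the pooled RPE-like cells it was higher in Vldlr-/- at 2 months, while the pooled 1-month levels lay side by side. At 1 month it had 35 UMIs (93.3 CPM) in Vldlr-/- against 57 (94.7 CPM) in wild type, a log2 ratio of -0.01 (-0.67 to 0.61). That ratio pools 1 cluster above 0 and 3 below. It was 1.03 (0.18 to 1.90) in the cluster led by Mt3 and -1.30 (-3.15 to -0.01) in that led by Cox8b and Pmel. Over alternative settings it ran from -1.57 to 2.89 and kept its sign in 10 of 19. At 2 months Vim had 1414 UMIs (175 CPM) in Vldlr-/- against 1261 (80.2 CPM) in wild type, a log2 ratio of 1.13 (1.02 to 1.24). The 3 other libraries lay between 80.2 and 94.7 CPM. The 2-month counts of the knockout were uneven between cells: 1 cell held 158 UMIs, and the 7 cells highest in Vim (1%) held 28.3% of the UMIs, against a highest cell of 23 UMIs and 13.4% in the top 15 wild-type cells. Without the top 1% of cells of each library the log2 ratio was 0.85, under the 2-fold limit. Age and the Cell Ranger version changed together, so that the contrast of the ages and that of the software cannot be told apart.

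RPE-like cells stayed below the mesenchymal cells in Vim in every library. Fibroblast-like cells had 628 CPM in Vldlr-/- and 586 CPM in wild type at 1 month, and 679 and 807 CPM at 2 months, within 2-fold of each other, where 3.51% and 3.84% of genes in these cells were 2-fold apart at the 2 ages. Mural-like cells, the pericytes and smooth muscle of vessels, had 1011 CPM in Vldlr-/- and 404 CPM in wild type at 1 month, 2-fold apart as were 10.5% of their genes, and 3039 and 2474 CPM at 2 months (4.89%). The log2 ratio of RPE-like to fibroblast-like cells was -1.96 (-2.06 to -1.85) in Vldlr-/- and -3.33 (-3.45 to -3.21) in wild type at 2 months. At 1 month these were -2.73 and -2.62. Of the 8 fibroblast markers 7, 7, 8 and 7 were counted in RPE-like cells of Vldlr-/- and wild type at 1 month and of Vldlr-/- and wild type at 2 months. They summed to 109 and 14.7 CPM in Vldlr-/- (1 and 2 months) and 76.4 and 10.2 CPM in wild type, with Pdgfra at 0 in Vldlr-/- at 1 month and Dpt at 0 in both wild-type libraries. The 5 markers Dcn, Lum, Col1a1, Col1a2 and Col3a1 gave 16.3 Vim UMIs per marker UMI in Vldlr-/- RPE-like cells and 11.2 in wild type at 2 months, while fibroblast-like cells themselves had 0.058 and 0.082. Without the barcodes that held such a marker UMI the 2-month log2 ratio was 1.15, against 1.13 with them. At 1 month RPE-like cells had 0.946 (Vldlr-/-) and 1.33 (wild type) Vim UMIs per marker UMI, and fibroblast-like cells 0.0255 and 0.0310. Endothelial markers summed to 13.6 CPM in Vldlr-/- and 14.9 CPM in wild type at 2 months. Macrophage markers summed to 146 and 157 CPM, most of it Csf1r (122 and 142 CPM). The part of either cell type in the Vim values was not tested.

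Acta2, the gene of smooth muscle actin (ENSMUSG00000035783, chromosome 19, 34241090 to 34255590, minus strand), showed no shared direction. It had 39 UMIs (104 CPM) in Vldlr-/- against 100 (166 CPM) in wild type at 1 month, a log2 ratio of -0.67 (-1.25 to -0.13). That ratio was -1.33 (-2.32 to -0.51) among barcodes with at least 1000 genes (14 and 59 UMIs) and -0.08 in Malat1-rich ones. At 2 months it had 868 (107 CPM) against 1591 (101 CPM), a log2 ratio of 0.09 (-0.03 to 0.21). The wild-type library of 1 month stood above the other 3. Mural-like cells held 73.7% of the Acta2 UMIs, at 8699 CPM in Vldlr-/- and 7802 CPM in wild type at 2 months, and RPE-like cells 20.3%. Fibroblast-like cells stood below RPE-like cells in each library. They had 8.40 CPM in Vldlr-/- and 41.2 CPM in wild type at 1 month, and 42.7 and 40.6 CPM at 2 months. Of 9 mural markers 8 were counted in RPE-like cells of each genotype at 2 months, summing to 59.7 CPM in Vldlr-/- and 58.0 CPM in wild type, most of it Cspg4 (37.0 and 37.3 CPM), with Higd1b at 0. At 1 month 6 (Vldlr-/-) and 5 (wild type) were counted, summing to 74.6 and 51.5 CPM, with Notch3 and Higd1b at 0 in both. Against the contractile companions Tagln, Myh11, Rgs5, Tpm2 and Myl9, RPE-like cells had 19.3 Acta2 UMIs per companion UMI in Vldlr-/- and 10.8 in wild type at 2 months, while mural-like cells had 0.343 and 0.338. In mural-like cells of 1 month the counts were small, with 91 Acta2 UMIs in 17 Vldlr-/- cells and 13 in 20 wild-type cells.

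Snai2, the gene of the repressor Slug (chromosome 16, 14705852 to 14709385, plus strand), was at 2 UMIs in Vldlr-/- RPE-like cells of 2 months and at 0 in the other 3 libraries. Its counts were those of stromal cells, with 68.0% of 228 UMIs in fibroblast-like and 20.6% in endothelial-like cells. Fibroblast-like cells had 71 UMIs (23.9 CPM) in Vldlr-/- against 59 (25.1 CPM) in wild type at 1 month and 15 (7.27 CPM) against 10 (7.13 CPM) at 2 months. Endothelial-like cells had 34 UMIs in Vldlr-/- against 10 in wild type at 2 months. The fibroblast markers Dcn (511 against 120 CPM) and Lum (163 against 22.6 CPM) differed in the same direction in those cells, and their part in the Snai2 counts was not tested.

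**Figure D3:**
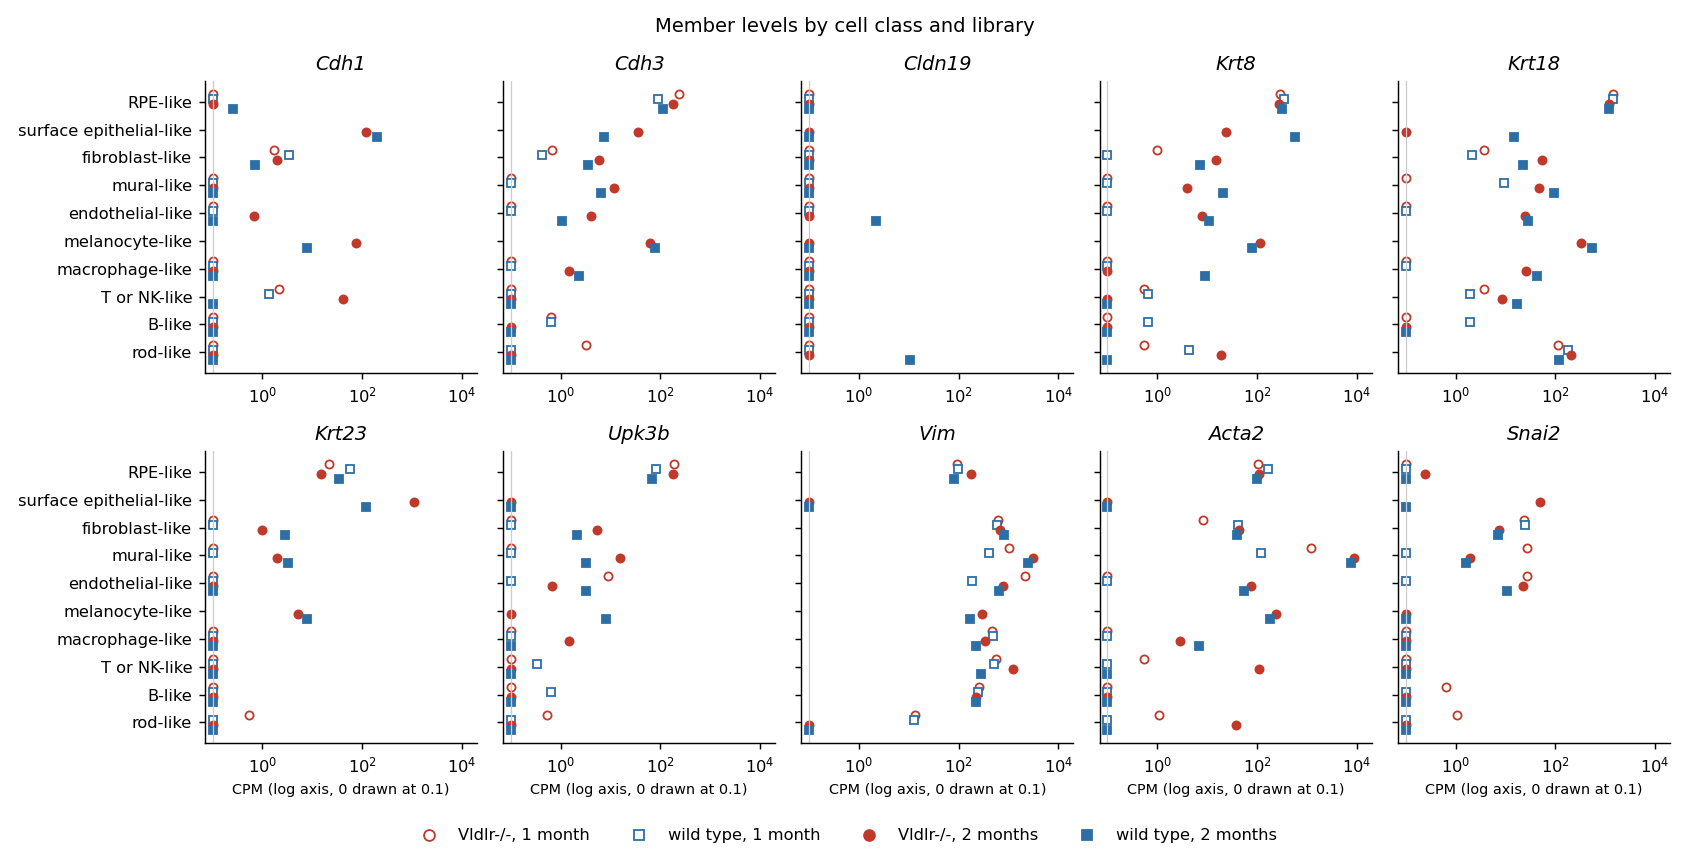
Level of each of the 10 genes (CPM, log axis, with 0 drawn at 0.1) by selected cell classes, where a class had at least 4 cells in a library. Circles are Vldlr-/- and squares wild type, open at 1 month and filled at 2 months. Schwann-like cells, neutrophil-like cells and the unnamed clusters are not drawn. Of these, the cluster led by Gpx3 and Penk had 82.2 (Vldlr-/-) and 102 CPM (wild type) of Cldn19 at 2 months. Cdh3, Krt8, Krt18 and Upk3b are highest in RPE-like cells apart from wild-type Krt8 (570 CPM) in the 6 surface epithelial-like cells, Vim is lower there than in fibroblast-like cells, and Cldn19 is at 0 in RPE-like cells.

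The RPE-like clusters of 2 months divide the cells pooled above. They do not repeat the contrast on which the genes were picked, and their values are a description. Upk3b was higher in Vldlr-/- in 5 of 5 clusters (log2 ratios 1.33 to 1.93), Vim in 5 of 5 (0.90 to 1.28) and Cdh3 in 5 of 5 (0.29 to 0.82), and Krt23 was lower in 5 of 5 (-1.58 to -0.42). The counting interval left out 0 in 5, 5, 3 and 3 of these clusters in the same order. Over the pooled RPE-like cells that interval left out 0 for 32.5% of 11856 genes at 2 months and 17.9% of 3647 at 1 month. The share of all genes within a cluster was not taken. Krt8 was lower in 4 of 5 (-0.30 to 0.02). Krt18 was above 0 in 3 of 5 (-0.08 to 0.31) and Acta2 in 2 of 5 (-0.37 to 0.22). The interval left out 0 in 3 clusters for Krt8, 2 for Krt18 and 1 for Acta2. At 1 month counts per cluster were small. Cdh3 and Upk3b were higher in the 3 clusters with counts in both genotypes, and the other one had 16 and 15 UMIs in 5 Vldlr-/- cells and 0 in 2 wild-type cells. The interval left out 0 in 2 of the 4 clusters for Cdh3 and in 1 for Upk3b. Krt23 was lower in 2 of the 3 with counts (-3.47 to 0.48). Vim was higher in Vldlr-/- in the cluster led by Mt3, which held 126 of 165 Vldlr-/- and 178 of 236 wild-type cells, at 1.03 (0.18 to 1.90) from 27 and 23 UMIs. It was lower in the other 3, among them the cluster led by Cox8b and Pmel at -1.30 (-3.15 to -0.01) from 5 and 26 UMIs. Clusters were not integrated across libraries, and neither clusters nor cells of 1 library are replicates.

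Malat1-rich barcodes were a larger share of Vldlr-/- RPE-like cells, and held 46.4% of RPE-like UMIs in Vldlr-/- against 20.7% in wild type at 2 months. At 2 months Upk3b was lower in them than in Malat1-poor barcodes of the same library, by a log2 ratio of -0.94 in Vldlr-/- and -1.20 in wild type. At 1 month it was at -1.08 (-2.54 to -0.04) in Vldlr-/- and 0.48 (-0.74 to 1.46) in wild type. Within Malat1-poor barcodes of 2 months the knockout over wild-type log2 ratio was 1.56 for Upk3b, 1.09 for Vim, 0.67 for Cdh3 and -1.20 for Krt23. Within Malat1-rich barcodes it was 1.82, 1.32, 0.84 and -0.66 in that order. Each ratio kept its side of 0 in both. At 1 month the Malat1-rich barcodes held only 7 (Vldlr-/-) and 10 (wild type) Upk3b UMIs, with a log2 ratio of -0.09 (-1.75 to 1.42), against 1.47 (0.87 to 2.10) in Malat1-poor barcodes.

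**Figure D4:**
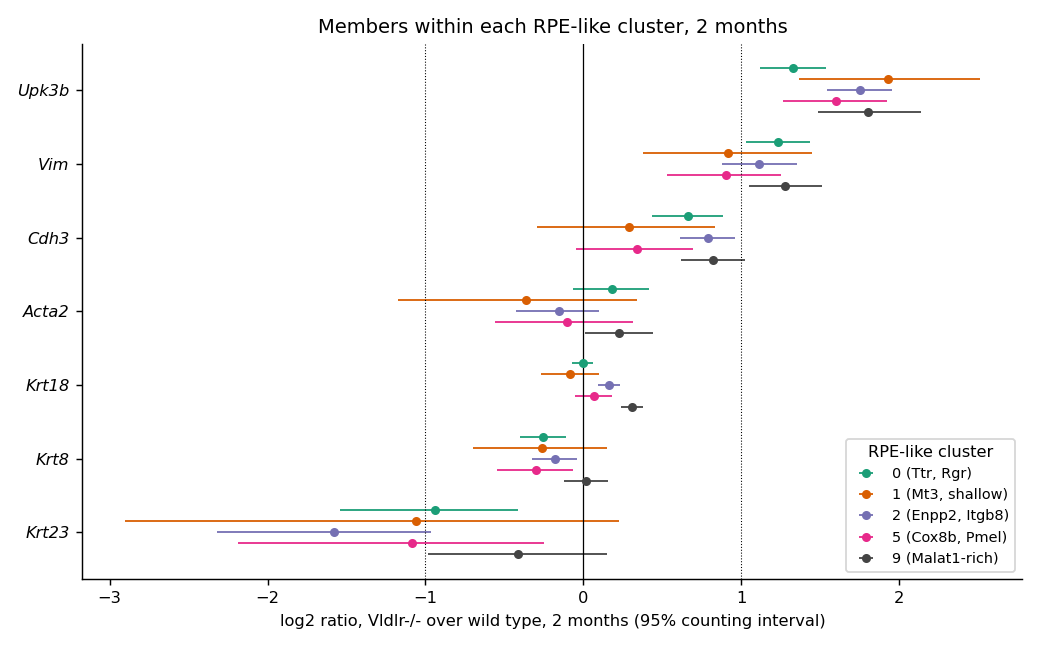
Log2 ratio of Vldlr-/- over wild type at 2 months (horizontal axis, dotted lines at 2-fold) for each measured gene within each of the 5 RPE-like clusters (colours), with 95% counting intervals. Upk3b, Vim and Cdh3 lie above 0 and Krt23 below 0 in all 5 clusters. Krt18 (-0.08 to 0.31), Krt8 (-0.30 to 0.02) and Acta2 (-0.37 to 0.22) lie on both sides of 0.

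Shares of cells with a UMI were compared after each cell was thinned to 1000 UMIs, which left out 43 (Vldlr-/-) and 36 (wild type) RPE-like cells at 1 month and 45 and 39 at 2 months. At 2 months Upk3b was found in 16.5% (13.5 to 19.8) of Vldlr-/- and 6.56% (5.33 to 7.98) of wild-type cells, and in 53.9% and 28.0% without thinning, at median depths of 9416 and 8270 UMIs. In fibroblast-like cells, which should lack it, the thinned share was 0.568% and 0%. Vim was counted in 12.1% (9.50 to 15.1) of thinned Vldlr-/- and 7.13% (5.84 to 8.59) of wild-type RPE-like cells, and in 58.6% and 40.8% without thinning, against 0 of 22 and 0 of 34 thinned rod-like cells. Cdh3 was found in 15.5% and 10.7% (unthinned 65.3% and 57.1%), and Krt23 in 1.78% (0.855 to 3.24) and 3.11% (2.27 to 4.15) (unthinned 13.2% and 21.8%). Krt18 was found in 66.3% and 65.3% (unthinned 93.8% and 95.1%), with an overlap of the intervals. At 1 month the shares of Upk3b were 14.8% (8.98 to 22.3) in Vldlr-/- and 6% (3.14 to 10.2) in wild type, and those of Vim 5.74% and 8%.

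**Figure D5:**
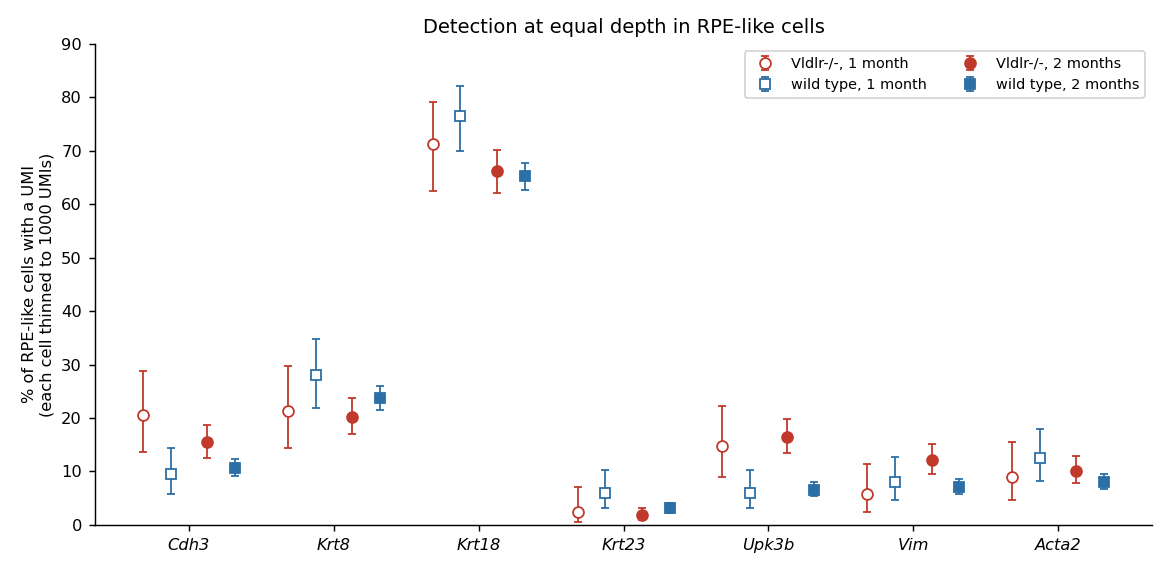
Share of RPE-like cells with at least 1 UMI of each measured gene after thinning every cell to 1000 UMIs (percent, axis from 0), where circles are Vldlr-/- and squares wild type, open at 1 month and filled at 2 months, with exact binomial 95% intervals. Upk3b stands at 16.5% in Vldlr-/- against 6.56% in wild type at 2 months, while Krt18 stands at 66.3% and 65.3%.

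Other genes of the same families are given by list, and the lists were chosen with earlier results of these data known. Over all genes, 3.48% were 2-fold higher and 2.80% lower in Vldlr-/- at 1 month, and 3.28% and 1.07% at 2 months. At those shares, lists with 1 to 20 measured genes would give few calls. Of 14 adherens junction genes, Cdh3 was the only one of 4 measured that was 2-fold higher at 1 month (list median 0.60), and 0 of 13 were 2-fold apart at 2 months (median 0.16, with 11 of 13 above 0). The median of all genes was 0.00 and 0.07. At 2 months 59.4% of all genes were above 0, with 44.1% in Malat1-poor and 49.5% in Malat1-rich barcodes. Ctnna1, alpha-catenin, had log2 ratios of 0.32 (-0.08 to 0.71) and 0.08 (0.01 to 0.15). Of 31 tight junction genes, 4 were measured at 1 month (median 0.57) and 20 at 2 months (median -0.01), with Jam3, a junctional adhesion molecule gene, 2-fold lower at 1 month (-1.22, from 9 UMIs in Vldlr-/- and 35 in wild type) and at -0.57 (-0.73 to -0.42) at 2 months. Of 14 desmosome genes, 1 and 5 were measured, and none was 2-fold apart. Perp, a desmosome and surface epithelial marker gene, was lower without reaching 2-fold, at -0.76 (-1.34 to -0.23) and -0.89 (-1.03 to -0.75), and Pkp4 was at 0.28 at 2 months. Of 15 epithelial identity genes, the 2 measured at 1 month and 3 at 2 months included Krt8 and Krt18 and none was 2-fold apart.

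Of 13 mesenchymal transcription factor genes, 1 was measured at 1 month and 5 at 2 months, and these 5 all had ratios above 0 without reaching 2-fold (median 0.47), beside 59.4% of all genes above 0. Zeb2, a repressor of epithelial genes, had 687 UMIs (85.1 CPM) in Vldlr-/- against 780 (49.6 CPM) in wild type at 2 months, a log2 ratio of 0.78 (0.63 to 0.93). Within Malat1-poor barcodes it was 0.10 (-0.18 to 0.37) and within Malat1-rich ones 0.34 (0.14 to 0.53). Zeb1 and Tcf4, at 0.43 and 0.47 over all RPE-like cells, stood at 0.21 and 0.16 in Malat1-poor and at -0.40 and -0.04 in Malat1-rich barcodes, and Prrx2 (18 and 30 UMIs) at -0.63 and 0.85. Sox9, which is also a gene of RPE itself, was at 0.47 (0.05 to 0.88) at 1 month and 0.64 (0.56 to 0.73) at 2 months, where it was 0.62 in Malat1-poor and 0.64 in Malat1-rich barcodes. Of 19 contractile genes, 6 and 13 were measured, with medians of 0.16 and 0.21, and Tagln2 was 2-fold higher at 2 months from 20 UMIs in Vldlr-/- and 13 in wild type. The best counted of them, Cnn3 and Cald1, were at -0.13 and 0.05 at 2 months. Of 22 mesenchymal matrix and surface genes, 6 and 14 were measured, with medians of 0.09 and 0.01, and at 2 months Vim was 2-fold higher and S100a4 2-fold lower (5 and 28 UMIs). Sparc and Fap, which are abundant in RPE-like cells here, were at 0.03 and -0.01. Of 15 intermediate filament and lamin genes other than keratins, 6 were measured at 2 months, where Vim was 2-fold apart and Lmna stood at 0.19. Nes, the gene of nestin, was below the count limit, with 10 UMIs in Vldlr-/- and 3 in wild type.

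Across 23 sums of a cell class in a library, each of at least 30 cells and from 9 classes, the genes whose log2 levels lay closest to each member were named from 13433 genes, as a description. They were Snx4, Arid5b and Stat6 for Vim (Pearson r 0.94, 0.94 and 0.94), Myh14, 4933429O19Rik and Prdm16os for Cdh3 (0.96 each), Myh14, Col9a3 and Tspan10 for Krt8 (0.97 each), Pla2g5, Otx2 and Rd3l for Krt18 (0.98, 0.97 and 0.97), Gsx2, Gm525 and 4933429O19Rik for Krt23 (0.97, 0.96 and 0.94), Gabra4, Htr3a and Map6d1 for Upk3b (0.97 each) and Rbpms2, Hspb2 and Lmod1 for Acta2 (0.97, 0.95 and 0.95). Between members, r was 0.93 for Cdh3 and Krt8, 0.84 for Krt8 and Krt18, and 0.49 for Vim and Acta2. The points share libraries and depth. Around the limits of the barcode filter, 36 RPE barcodes called one by one had 25 to 30% mitochondrial UMIs. They had 109 CPM of Vim and 94.0 CPM of Upk3b (36 and 31 UMIs). Those with 30 to 35% (9, left out) had 124 and 46.5 CPM (8 and 3 UMIs). Those with 300 genes or slightly more (88) had 143 CPM of each (9 UMIs each), and those with fewer genes (32, left out) had 1 Vim and 3 Upk3b UMIs. Each band pooled the libraries in unlike numbers, such as 23 Vldlr-/- and 12 wild-type barcodes of 2 months at 25 to 30%. The bands therefore cannot be compared with each other.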

How the data were processed

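Droplet single-cell RNA libraries (10x Genomics) of RPE and choroid from Vldlr-/- and wild-type mice at 1 and 2 months were analysed, with 1 library per group. The deposited values are raw UMI counts per gene and barcode, with no normalization per the file headers. Software named in the headers is Cell Ranger 6.0.2 (1-month libraries) and 7.0.1 (2-month libraries), whereas mm9, Seurat 4.0 and Cell Ranger 3.0 stand in the submitters' processing notes. The sources used here do not say whether intron reads were counted. Coordinates are those of GRCm38 (GENCODE M21), in which 32235 of 32285 gene identifiers matched.

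Barcodes passed with 300 genes or more and 30% mitochondrial UMIs or less: 1819 of 2073 (Vldlr-/-) and 1549 of 1696 (wild type) at 1 month, 1140 of 1634 and 2047 of 2540 at 2 months. Scrublet, run per library in scanpy 1.11.5, marked 26 of 6555 (0.397%), too few for it to have worked as a doublet caller; these were removed. Counts scaled to 10000 per cell, 2000 variable genes without the 10 members, 30 principal components, 15 neighbours and Leiden clustering at resolution 1.0 (leidenalg 0.10.2, igraph 0.11.9) gave 29 clusters. Clusters were named "X-like" from marker lists, 5 as RPE-like, and 4 stayed unnamed. Cells made by doublets or free RNA can carry UMIs of genes they do not express.

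Raw counts were summed per library and class and scaled to 1000000 (CPM). A gene entered the log2 ratios with 30 UMIs or more over both genotypes, and 0.5 was added to each count. No test was run, since 1 library per group gives no replicate error. Exact Poisson, Clopper-Pearson and conditional binomial 95% intervals cover counting error only. The ratio calculation was tested on simulated counts. The named genes were the 10 members, list genes past 2-fold with the same sign at each age, the 2 genes of each list highest in CPM, and for each measured member the 3 genes of most similar pattern. Krt10, Tagln2, S100a4, Nes, Zeb1, Tcf4 and Prrx2 fall outside this rule and were named after their values were seen. Members and lists were chosen with earlier results of these data known. Alternatives covered filters, doublets, scaling, thinning, free RNA, clustering and Malat1 content. Tables were handled with pandas 2.3.3 and numpy 2.4.6, intervals with scipy 1.17.1 and figures with matplotlib 3.10.9, under Python 3.11.15.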

Additional observations from a re-analysis of the deposited data

How the results depend on the processing

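Over 19 alternative settings the 14 log2 ratios of the 7 measured genes gave 266 values, of which 229 stayed within the counting interval of the main value, 36 left it and 1 turned the direction of a ratio past 2-fold. That value was Upk3b at 1 month in Malat1-rich barcodes alone, at -0.095 from 7 and 10 UMIs. Upk3b at 2 months ran from 1.29 to 1.82, Krt23 from -1.29 to -0.66 at 2 months and -1.88 to -0.46 at 1 month, and Cdh3 from 0.48 to 0.84 at 2 months and 1.05 to 2.82 at 1 month. Vim at 2 months ran from 0.85, without the 1% of cells highest in the gene, to 5.17 with free RNA subtracted, and Acta2 at 2 months from -0.05 to 2.30 under the same 2 settings. Vim at 1 month, main value -0.01, ran from -1.57 to 2.89 and kept its sign in 10 of 19. Acta2 at 1 month ran from -1.33 to -0.08. Krt18 at 2 months, at 0.04, kept its sign in 16 of 19, with a lowest value of -0.04. The free RNA rate of the wild-type library of 2 months was 28.2%, and 14.6% without red blood cell markers (6854 UMIs in its RPE-like cells), with Vim at 1.74 and Acta2 at 0.48. Members at least 2-fold apart at 2 months numbered 1 with cells thinned to equal depth, where Vim stood at 0.92 and Krt23 at -0.75, and those at 1 month numbered 5 at clustering resolution 0.5, whose RPE-like cells held 147491 (Vldlr-/-) and 201996 UMIs (wild type).

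With at least 100 UMIs required, genes 2-fold apart were 13 higher (1.01%) and 9 lower (0.700%) at 1 month. At 2 months they were 131 (1.35%) and 49 (0.504%). Lower list genes were 0 at 1 month and 1 at 2 months. With 1 UMI enough, list genes were 27 higher and 12 lower at 1 month and 21 and 13 at 2 months. Of all genes under that limit, 19.8% were 2-fold higher and 10.3% lower at 1 month, and 15.0% and 5.21% at 2 months. In both cases the set of genes tested changed. Without the cluster led by Otx2os1 and Trpm3, genes 2-fold apart at 2 months were 162 higher and 201 lower, and Upk3b stood at 1.58; the cause was not tested. Size factors moved the 2-month log2 values by 0.06. Settings that removed the cluster led by Cox8b and Pmel or that led by Otx2os1 and Trpm3, barcodes with mural or fibroblast marker UMIs, or the cells highest in a gene, and the free RNA rate without red blood cell markers, were chosen after seeing the data. No replicate could be left out. No paired analysis was possible because each group is 1 library, and the shared replicate number is only a name. RPE-like depth at 1 month, 375311 UMIs in Vldlr-/- and 601774 in wild type, limits all 1-month values.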
